A study of Solanum lycopersicum with 12 samples.

Results

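The interaction of salinity and heat was taken from all 12 leaf libraries of tomato (Solanum lycopersicum), read as a design with both stresses absent, either one present, or both present. The 4 groups of 3 libraries were control plants, plants under salinity, plants under heat, and plants under salinity and heat together, called the combination here. The labels give leaf tissue as the source and the treatment as the only difference. They do not state the cultivar, the plant age, the salt concentration, the temperature, the duration or how many plants a library holds, so the p-values measure the spread between these libraries, which may be technical. The interaction is the log2 effect of heat with salinity minus the log2 effect of heat without salinity. It equals the effect of salinity with heat minus that without heat. A value of 0 means that the stresses multiply, a positive value means that the combination lay above that product, and a negative value that it lay below. It was estimated for 20717 of the 34075 gene models in the deposited count table.

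Salinity lowers the water potential around the root and loads tissue with sodium and chloride, and leaves answer with abscisic acid signalling, osmolytes such as proline, and ion transport. Heat unfolds proteins and disturbs membranes, and leaves answer through heat stress transcription factors that raise chaperones. Both stresses increase reactive oxygen species, which ascorbate and its recycling enzymes help to remove. The title of the series names proline, ascorbate and oxidative stress as its subject. The gene models of the table carry Solyc identifiers that are not paired with gene names in the sources used here, and 0 of the tested ones matched the RefSeq gene table. Genes of those pathways, and leaf marker genes, were therefore not analysed by name. The results describe how gene models departed from additivity, with 4 of them shown in full.

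Total counts lay between 56281339 and 78370751 per library. The 12 pairs of libraries within a group had Pearson correlations of log2 CPM, counts scaled to a library size of 1000000, between 0.967 and 0.984. The TMM scaling factor was 0.668 in salinity replicate 2 and between 0.88 and 0.995 in the other libraries without heat. In the libraries with heat it was between 1.02 and 1.23. The factors thus differed between libraries with and without heat, without overlap. Results without each library are given beside the counts they move.

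Of the tested gene models, 1852 (8.94%) had an interaction by edgeR's quasi-likelihood test with a Benjamini-Hochberg adjusted p under 0.05. It was positive in 980 (4.73%) and negative in 872 (4.21%). Positive interactions were smaller, with a median log2 size of 1.22 (quartiles 0.94 and 1.8), and sat at a median level of 13.5 CPM. Negative ones had a median size of 1.74 (quartiles 1.36 and 2.18) at a median level of 7.5 CPM. The median SE was 0.27 for positive and 0.41 for negative calls. A larger SE requires a larger size for a call, so these sizes are not directly comparable. Whether the signs differ in size beyond this was not tested. A size of at least 2, a 4-fold departure, was reached by 203 positive and 304 negative interactions. With total counts in place of scaling factors, 721 of 1103 calls were positive (65.4%, compared with 52.9% of the 1852). The median interaction over every gene model tested was then 0.06, compared with -0.06. The balance of signs also turned with single libraries, since 659 of 1664 calls (39.6%) were positive without heat replicate 3, 48.7% without control replicate 1 and 49.7% without combination replicate 3. The count fell by over 1.5 times without control replicate 1 (1065), control replicate 2 (806), combination replicate 1 (826) or heat replicate 2 (958). A set of 598 gene models, 355 positive and 243 negative, was called in every one of the 19 alternative fits, and none of the 1852 changed sign in any of them. These fits share most or all of their libraries with the fit as reported, so they are not independent support.

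For most of these gene models the combination was not called against control. This was so for 1137 of the 1852 (61.4%), made up of 564 positive and 573 negative interactions. It was lower than control in 446 and higher in 269. Over all tested gene models, 32.5% were called in this comparison, 15.1% lower and 17.5% higher. The lack of a call was therefore common over all gene models and is not particular to those with an interaction. A positive interaction was thus not the same as a high level in the combination, which was lower than control in 278 of the 980 positive cases and higher in 138. Among the 872 negative cases the combination was lower than control in 168 and higher in 131.

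The shape of each interaction was described by which group stood apart in the fitted log2 levels. A group was said to stand apart when it lay at least 1 above or below the nearest other group and the other 3 groups lay within 1 of each other. The shape with most calls was a low level in salinity alone, found in 309 gene models (16.7% of the calls). This order turned without heat replicate 3, where it had 203 calls and a high level in heat alone had 387. Their median level was 4.47 CPM in salinity, against 14.2 CPM in control, 17.9 CPM in heat and 13.2 CPM in the combination. By the definition of the shape, all 309 gene models were lower in salinity than in control and in the combination. The median log2 change was -1.67 for salinity without heat and -0.39 for salinity with heat. In 308 of them the 3 salinity libraries lay below the 9 others, which was so for 16.4% of all tested gene models. A shape requires a gap of at least 1 between fitted levels, so this lack of overlap largely follows from the selection. Here and for the shapes below it is a description and no separate support. Of all 786 tested gene models of this shape, 39.3% had an interaction call. The number fell by over 1.5 times without control replicate 1 (177), control replicate 2 (182), combination replicate 1 (140) or heat replicate 3 (203), and was 224 without salinity replicate 2, the library with the low scaling factor. The interaction of 143 of the 309 was called in every alternative.

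A high level in heat alone was found in 198 gene models (10.7% of the calls). Over all tested gene models this shape was the more frequent, with 853, of which 23.2% had an interaction call. The median level was 13.2 CPM in heat, against 4.34 CPM in control, 4.43 CPM in salinity and 3.63 CPM in the combination. All 198 were called higher for heat without salinity, a direction that the shape requires, with a median log2 change of 1.62. For heat with salinity 4 of them were called, each of them lower. The 3 heat libraries lay above the 9 others in 186, against 16.5% of all tested gene models. This number depended strongly on single libraries. It was 50 and 77 without control replicates 2 and 3, 117, 118 and 117 without salinity replicates 1, 2 and 3, 76 and 85 without combination replicates 1 and 2, and 42 without heat replicate 2, but 387 without heat replicate 3. With total counts alone it was 85, with the replicate number as a block 111 and with DESeq2's Wald test 299, and 42 of the 198 were called in every alternative.

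The opposite shapes had fewer calls. A high level in salinity alone was found in 45 gene models, at a median of 29.6 CPM in salinity and between 9.68 and 10.6 CPM in the other groups. A low level in heat alone was found in 42, at a median of 1.68 CPM in heat and between 5.41 and 8.13 CPM elsewhere. The libraries of the group that stood apart did not overlap the 9 others in 44 of the 45 and 41 of the 42, against 13.1% and 8.85% of all tested gene models. The counts in the 12 fits without 1 library ran from 14 (without control replicate 2) to 79 (without combination replicate 2) for the former and from 23 (without heat replicate 2) to 49 (without combination replicate 2) for the latter. Total counts alone gave 17 and 25, and DESeq2's Wald test 97 and 75. Of the 346 and 192 tested gene models of these shapes, 13.0% and 21.9% had an interaction call.

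Gene models in which the combination itself stood apart were few. In 20 the combination was higher than the other 3 groups, at a median of 19.3 CPM against 5.15 to 6.14 CPM, with a median log2 change of 1.72 against control. In 33 it was lower, at a median of 2.51 CPM against 5.5 to 7.79 CPM, with a median change of -1.46. The 3 combination libraries lay above the 9 others in all 20 and below them in 31 of the 33, compared with 5.08% and 2.26% of all tested gene models. The fits without 1 library gave 11 (without control replicate 2) to 30 (without salinity replicate 1) for the higher and 19 (without control replicate 1) to 58 (without combination replicate 2) for the lower shape. The lower shape had 15 with total counts alone, and DESeq2's Wald test gave 31 and 51. Of the 122 and 107 tested gene models of these shapes, 16.4% and 30.8% had an interaction call.

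In other gene models the control stood apart from the 3 stress groups. The control was lower in 35, with a median log2 level against control of 1.42 under salinity, 1.69 under heat and 1.47 under both. It was higher in 21, with -1.79, -1.48 and -1.57. The control libraries did not overlap the 9 others in 34 of the 35 and in all 21, against 4.89% and 3.97% of all tested gene models. A further shape set both single stresses apart from control and combination. In 35 gene models salinity and heat were each at least 1 above both, with median changes of 1.41 and 1.49 against control and -0.22 in the combination, and a median interaction of -3.43. The reverse, with both single stresses low, was found in 7. In the fits without 1 library, a low control was found in 16 (without control replicate 2) to 43 (without salinity replicate 3), a high control in 7 (without combination replicate 1) to 26 (without salinity replicate 3), both single stresses high in 23 (without control replicate 2) to 46 (without combination replicate 3) and both low in 6 (without heat replicate 2) to 19 (without salinity replicate 3). Total counts alone gave 21, 10, 21 and 9 for these 4 shapes and DESeq2's Wald test 57, 49, 36 and 10. The called share of the tested gene models of each shape was 15.2% of 230, 21.2% of 99, 76.1% of 46 and 17.5% of 40. A shape with both single stresses apart requires a larger interaction by definition than a shape with 1 group apart. The median of -3.43 and these shares are thus partly set by the definitions and not directly comparable between shapes. The remaining 1107 calls had none of these shapes.

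**Figure D1:**
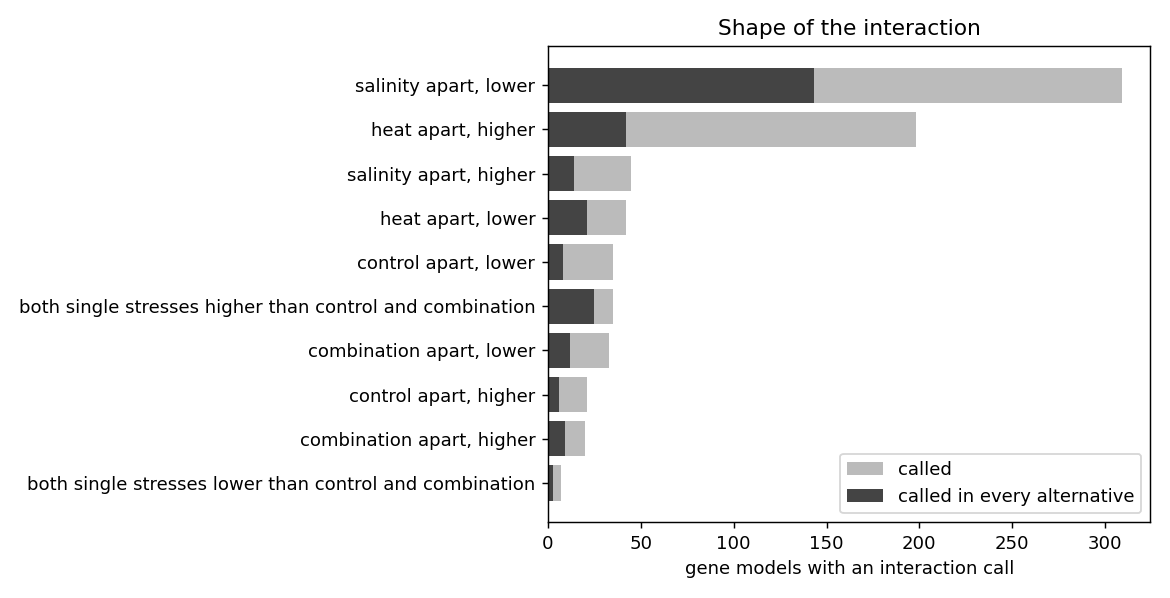
Number of gene models with an interaction call (x axis) by shape (y axis), with the part called in every alternative in dark. The low level in salinity alone (309) and the high level in heat alone (198) are the longest bars, and 20 gene models have a combination that stands above all other groups.

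**Figure D2:**
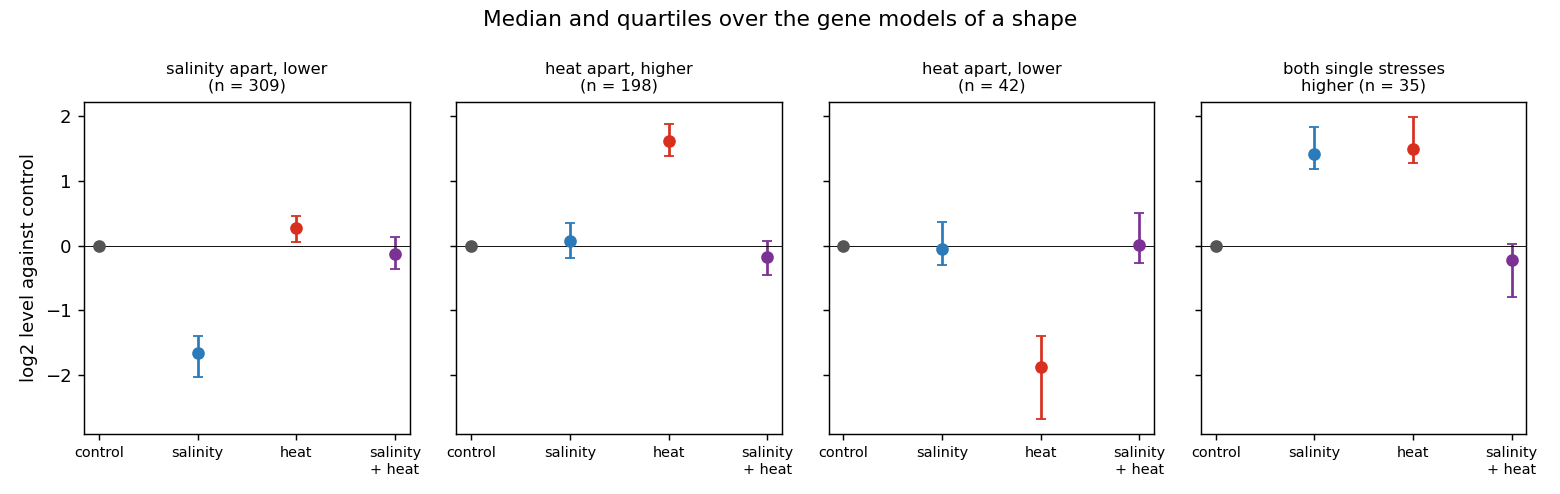
Median log2 level against control (y axis) in the 4 groups (x axis) for 4 shapes, with bars from the lower to the upper quartile over gene models. In the 309 gene models low in salinity and the 198 high in heat, the median of the combination lies at -0.13 and -0.18, near control.

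The same calls were then read as the effect of heat without and with salinity, contrasts that share no library with each other. The interaction is the difference of these effects, so they describe it and are no further test. In 597 gene models heat had no call without salinity and raised the level with it, with median log2 effects of 0.04 and 1.19. In 477 heat raised the level without salinity and had no call with it, with medians of 1.43 and -0.32. Over all tested gene models heat was called in 39.9% without salinity (24.6% higher, 15.2% lower) and in 44.5% with it (24.4% higher, 20.1% lower). Heat lowered 227 gene models only by call with salinity (median -1.31, and 0.31 without) and 174 only by call without it (median -1.33, and 0.22 with). In 127 heat raised the level in both, more strongly with salinity (medians 0.72 and 1.96). In the fits without 1 library these numbers ran from 91 (without combination replicate 1) to 295 (without combination replicate 2), from 67 (without control replicate 2) to 228 (without combination replicate 2) and from 38 (without control replicate 2) to 144 (without salinity replicate 1). With total counts alone the first and second were 94 and 88. The 597 ran from 258 (without combination replicate 1) to 794 (without combination replicate 2) in the fits without 1 library, with 322 and 327 without control replicates 1 and 2 and 384 without heat replicate 2. The 477 ran from 139 (without control replicate 2) to 631 (without heat replicate 3), with 307, 225, 302, 183, 260 and 146 without control replicates 1 and 3, salinity replicate 1, combination replicates 1 and 2, and heat replicate 2. With total counts alone they were 419 and 185. The replicate number as a block gave 428 and 268, and DESeq2's Wald test 1011 and 786.

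Of the 20717 tested gene models, heat acted in opposite directions in 178, with a call in each direction. All 178 had an interaction call, which calls of opposite sign make close to certain. In 114 heat raised the level in plants without salinity and lowered it in plants with salinity, with median log2 effects of 1.08 and -1.03. In 64 heat lowered the level without salinity and raised it with salinity, by medians of -0.7 and 0.67. The interaction was called in every alternative for 85 of the 114 and 46 of the 64. In the patterns without a reversal a smaller part was kept. It was 214 of the 597, 85 of the 477, 59 of the 227, 41 of the 174 and 49 of the 127. Without control replicate 2 or combination replicate 1 the 114 became 60 and 70. The 64 became 41, 41, 42, 110 and 34 without control replicates 1 and 2, combination replicates 1 and 2, and heat replicate 2.

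Read from the side of salinity, 504 gene models were lowered by salinity without heat and had no call with heat, with median log2 effects of -1.21 and -0.08. Another 265 were lowered in both, less so with heat (medians -1.81 and -0.71). In 456 salinity had no call without heat and lowered the level with heat, with medians of 0.24 and -1.55. In the other direction, 247 were raised by salinity without heat and had no call with it (medians 1.25 and -0.35), and 144 had no call without heat and were raised with it (medians -0.22 and 1.47). Over all tested gene models salinity was called in 47.4% without heat (23.6% higher, 23.8% lower) and in 40.3% with it (17.0% higher, 23.4% lower). Salinity acted in opposite directions in 168 gene models. It raised 120 without heat and lowered them with heat (medians 1.01 and -1.2), and lowered 48 without heat and raised them with heat (medians -0.94 and 0.91). Both stresses reversed in 55 gene models. The interaction was called in every alternative for 159 of the 504, 107 of the 265, 90 of the 456, 53 of the 247 and 48 of the 144. Among the reversals this was so for 89 of the 120 and 35 of the 48. The 504 became 258, 238, 217 and 884 without control replicates 1 and 2 and combination replicates 1 and 2, and 933 with DESeq2's Wald test. The 265 ran from 94 (without heat replicate 2) to 266 (without control replicate 3), with 122, 131, 118, 144, 104 and 152 without control replicates 1 and 2, combination replicates 1 and 3, and heat replicates 1 and 3, and was 131 with total counts alone. The 247 became 106, 84, 148 and 100 without control replicates 1 and 2, salinity replicate 2 and combination replicate 1, and 112 with total counts alone. The 144 became 78, 90, 76 and 63 without control replicates 2 and 3, combination replicate 1 and heat replicate 2. The 456 ran from 149 (without heat replicate 2) to 600 (without heat replicate 3). It was 160, 223, 162, 282 and 300 without control replicates 2 and 3, combination replicates 1 and 2, and heat replicate 1. With total counts alone it was 172, with the replicate number as a block 260 and with DESeq2's Wald test 754. The 120 became 74, 67, 78 and 77 without control replicates 1 and 2, salinity replicate 2 and combination replicate 1, and the 48 became 24 without heat replicate 2.

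**Figure D3:**
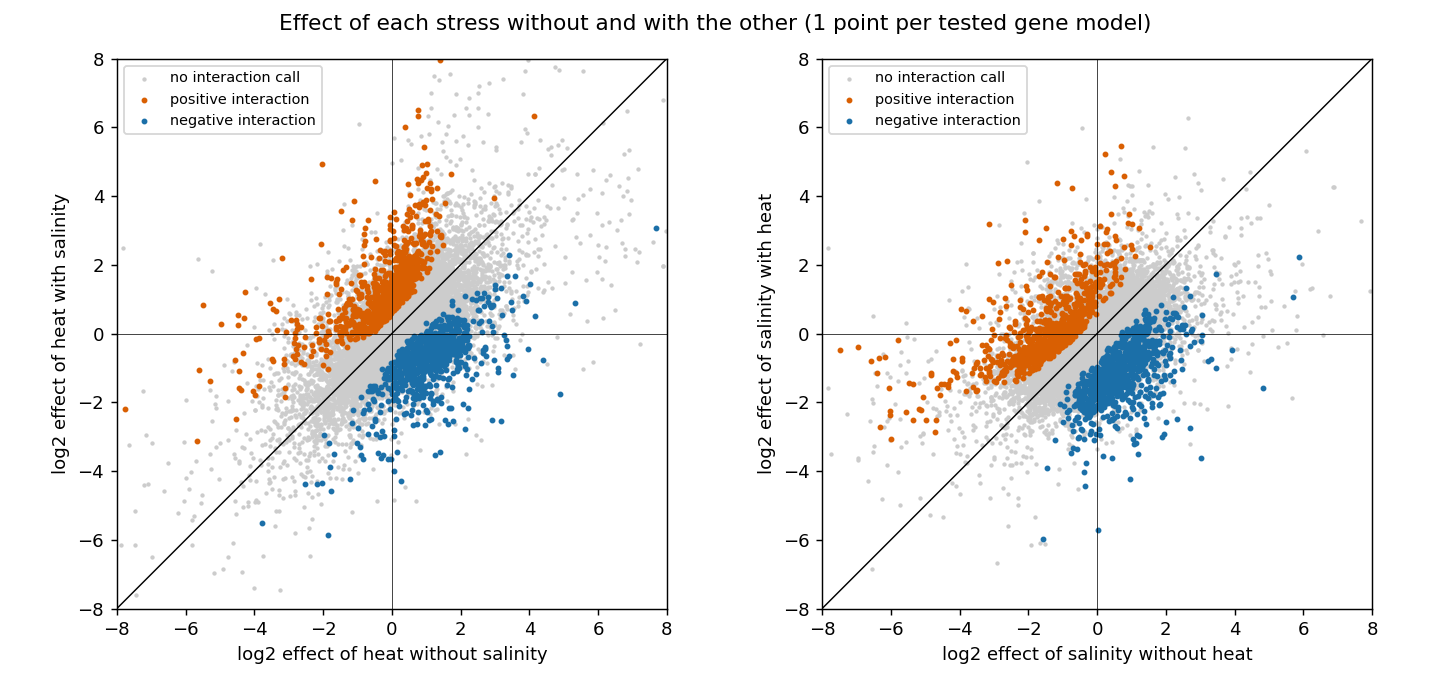
Log2 effect of heat (left) and salinity (right) without the other stress (x axis) and with it (y axis), 1 point per tested gene model, with positive interactions in orange, negative ones in blue and the line of equal effects in black. Called gene models lie away from the line, and the 114 and 64 gene models with reversed heat effects lie at the lower right and upper left. Beyond 8 on either axis, 13 gene models (left) and 5 (right) are not drawn.

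A set of 4 gene models shows these patterns library by library. They had the largest positive and negative interactions among calls with a mean of at least 5 CPM. The first, Solyc02g071220.3.1, on chromosome 2 by its identifier, stood at 70.5, 26.2 and 32.4 CPM in control, 24.8, 75.0 and 111 in salinity, 2.06, 1.26 and 3.19 in heat. In the combination it stood at 53.0, 111 and 125. The heat libraries lay below all 9 others, while the other groups overlapped. Heat changed it by a log2 value of -4.3 (SE 0.6) without salinity and 0.46 (SE 0.52) with salinity, with adjusted p of 0.000428 and 0.501 in edgeR's test. The interaction was 4.76 (SE 0.78), with an edgeR adjusted p of 0.00649.

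Solyc05g052570.3.1, on chromosome 5, was low in salinity. It stood at 95.2, 49.9 and 49.2 CPM in control, 2.29, 4.3 and 9.22 in salinity, 53.0, 36.0 and 31.0 in heat. In the combination it stood at 53.0, 62.3 and 40.7. The 3 salinity libraries lay below all others, and control, heat and combination overlapped. Salinity changed it by -3.61 (SE 0.46) without heat and 0.38 (SE 0.41) with heat, with edgeR adjusted p of 0.000104 and 0.477. The interaction was 3.99 (SE 0.6) with an edgeR adjusted p of 0.00402.

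Solyc12g008600.2.1, on chromosome 12, rose in heat and fell below every other group when salinity was added. Its levels were 4.79, 4.84 and 7.96 CPM in control, 5.61, 7.1 and 5.1 in salinity, 64.8, 72.3 and 21.8 in heat. In the combination it stood at 0.782, 1.61 and 0.632. Control and salinity overlapped, and heat and combination lay clear of them on opposite sides. Heat changed it by 3.18 (SE 0.44) without and -2.55 (SE 0.45) with salinity, with edgeR adjusted p of 0.000399 and 0.000875. The interaction of -5.73 (SE 0.63) had an edgeR adjusted p of 0.00139.

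Solyc01g112000.4.1, on chromosome 1, was raised by either stress and not by both. It stood at 35.6, 21.6 and 49.0 CPM in control, 107, 124 and 166 in salinity, 135, 181 and 149 in heat. In the combination it stood at 17.0, 27.9 and 13.4. The salinity and heat libraries overlapped with each other and lay above all control and combination libraries, which overlapped as well. The log2 change against control was 1.9 (SE 0.32) under salinity, 2.13 (SE 0.32) under heat and -0.87 (SE 0.31) under both, with edgeR adjusted p of 0.00057, 0.000631 and 0.049. The interaction was -4.9 (SE 0.46), with an edgeR adjusted p of 0.00098. All 4 gene models kept the interaction call in each of the 19 alternatives. They were chosen for the size of their interaction, and the alternatives use most or all of the same libraries. Keeping the call is therefore a description and no separate support.

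**Figure D4:**
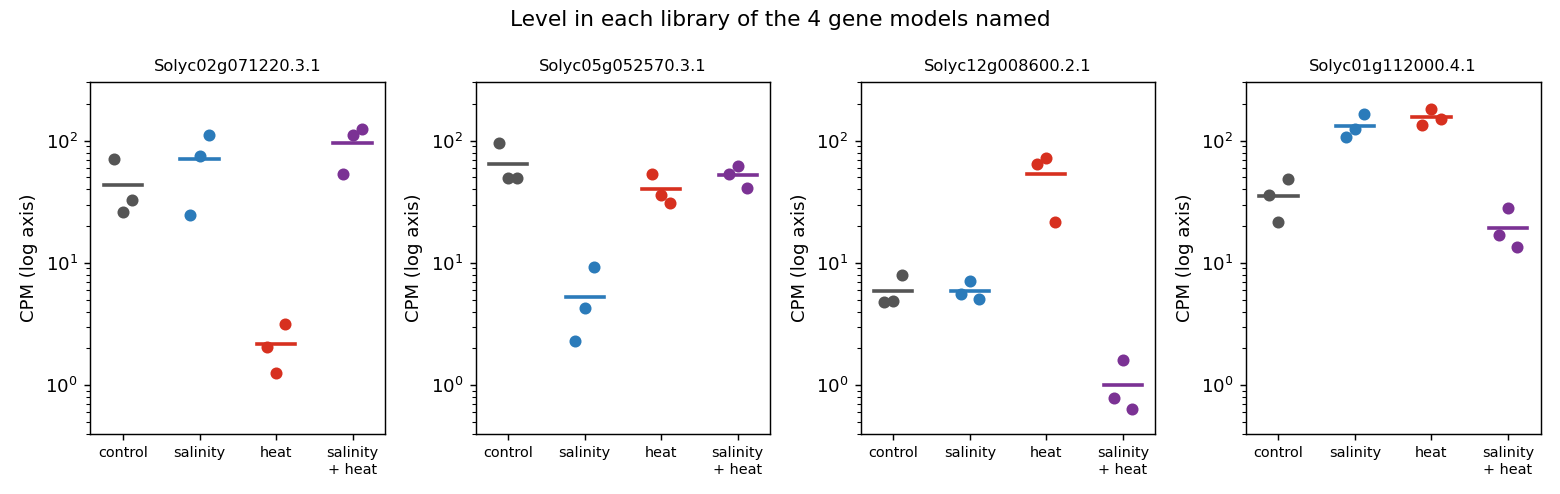
CPM on a log axis (y axis) in each library of the 4 groups (x axis) for the 4 gene models, with a point per library and a line at the group mean. The heat libraries of Solyc02g071220.3.1 (1.26 to 3.19 CPM) and the salinity libraries of Solyc05g052570.3.1 (2.29 to 9.22 CPM) lie below all others.

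Gene models that were close to silent in a group were a small part of the calls. In 22 of them each of the 3 salinity libraries held at most 3 counts, out of 285 such gene models tested. The same was found for control in 5 of 219, for heat in 3 of 90 and for the combination in 0 of 51. The share of tested gene models with an interaction call was 3.13% below 1 CPM, where the median SE of the interaction was 0.81, and 9.29% from 1 to 5 CPM, 11.5% from 5 to 20, 10.7% from 20 to 100 and 9.26% above, where the median SE lay between 0.24 and 0.43. Above 100 CPM, 89 of 121 interactions were positive, whereas from 1 to 5 CPM 265 of 448 were negative.

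Interactions were spread over all chromosomes, which Solyc identifiers carry as their first number, followed by a number that follows the order along the chromosome. The called share lay between 7.53% on chromosome 12 and 9.63% on chromosome 1. Positive interactions made up 44.0% of the calls on chromosome 1 and 59.0% on chromosome 6, the extremes among the 12 chromosomes. Of 20661 pairs of neighbouring tested gene models, 199 had both members called, 116 with the same sign and 83 with opposite signs. There were 7 runs of at least 3 neighbours called with the same sign, and the longest had 4 gene models, on chromosome 5 and with positive interactions. With 8.94% of all tested gene models called, some neighbours are both called in any order. Whether the calls cluster was not tested. Counts of near-identical neighbours are uncertain, because the treatment of reads that map to several places is not stated.

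**Figure D5:**
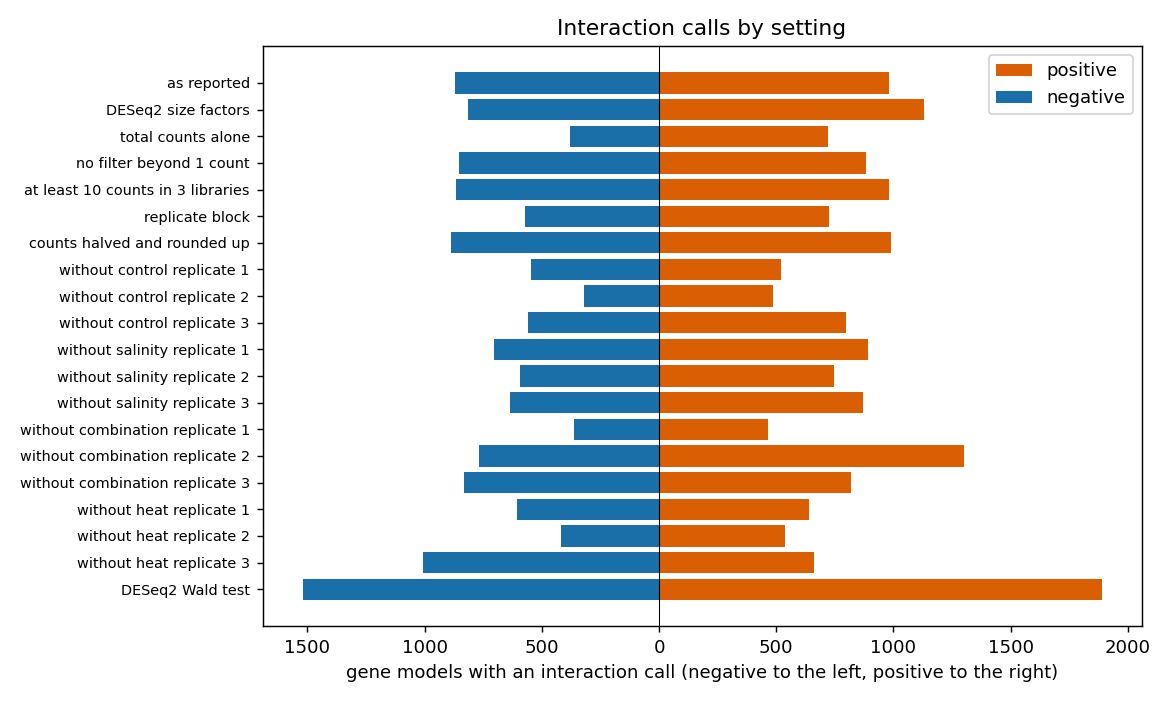
Number of gene models with a positive (right of 0) and negative (left of 0) interaction call (x axis) in the fit as reported and in each alternative (y axis). The number runs from 806 without control replicate 2 to 3409 with DESeq2's Wald test, against 1852 as reported.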

How the data were processed

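The authors deposited counts of whole numbers for each gene model in each library. They are not normalized, and the table's name refers to the ITAG4.0 annotation. The submitters' processing notes name Trimmomatic 0.33 and Bowtie2 2.3.4. The counting program, strandedness and the handling of multiply mapped reads are not given in the sources used here. Per the labels' protocols, leaf messenger RNA was enriched on beads and sequenced as read pairs.

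Here, edgeR 4.0.16 in R 4.3.3 was used with filterByExpr, TMM factors and a quasi-likelihood fit of the 4 groups to all 12 libraries. P-values were adjusted by Benjamini-Hochberg over 20717 gene models within each contrast, and calls have an adjusted p under 0.05. The SE is the absolute log2 value divided by the square root of F. CPM use TMM-scaled library sizes. At these depths 3 counts equal 0.0326 to 0.0668 CPM on this scale, which covers counting error only. The biological coefficient of variation was 25.8%. All pairs within groups differed by more than sampling noise.

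Because 0 identifiers matched the reference table, only the clause for unnamed identifiers of the naming rule was applied (the 2 largest interactions of each sign, mean of at least 5 CPM), and the lists of pathway genes and leaf markers were not used. Contrasts, shapes and lists were chosen with earlier results of these data known. Alternatives were DESeq2 size factors, total counts alone, no filter beyond 1 count, at least 10 counts in 3 libraries, DESeq2 1.42.0, a replicate block, halved counts, a log2 threshold of 1 and leaving out each library. The shapes and stress-effect patterns were defined after the data were seen.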

Additional observations from a re-analysis of the deposited data

Results flagged for a closer look

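In 1852 gene models, edgeR's test of the difference found unequal effects of heat in the absence and presence of salinity. The 4 gene models shown in full belong to them, with an interaction of 4.76 for Solyc02g071220.3.1, 3.99 for Solyc05g052570.3.1, -5.73 for Solyc12g008600.2.1 and -4.9 for Solyc01g112000.4.1 on the log2 scale.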

How the results depend on the processing

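The interaction of the 4 gene models shown kept its sign and its call in all 19 alternative fits. These gene models were chosen for their large interactions, so this is no separate support. The number of interaction calls was 1103 with total counts alone and 3409 with DESeq2's Wald test. Positive calls numbered 1888 with DESeq2's Wald test, and negative calls 382 with total counts alone and 1521 with DESeq2's Wald test. In the fits without 1 library, calls ran from 806 to 2066, positive calls from 465 to 1299 and negative calls from 321 to 1005. Calls for heat without salinity ran from 4804 to 8804, for heat with salinity from 6587 to 9558, for salinity without heat from 7467 to 10131 and for salinity with heat from 4900 to 8931. Scaling factors were computed anew in each fit, and the cause of these differences was not tested. With the replicate number as a block, 1297 interactions were called, 573 of them negative, and 1254 were shared with the 1852. The mean correlation between deviations of libraries with 1 number was -0.0113 (18 pairs), over a range of -0.48 to 0.35. For pairs with different numbers the mean was 0.00527 (36 pairs), and 4 of 12 libraries correlated best with their own number. The labels do not state whether a number marks a shared batch. Requiring a log2 size of at least 1 left 1487 calls. Counts per pathway list were not run, because none of the identifiers matched a name. Below 1 CPM 3.13% of tested gene models were called and the median SE was 0.81. Whether depth limits those calls was not tested.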
